A study of Homo sapiens with 9 samples.

Results

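The BCL2 family and BAG1 were followed here as 9 genes in LAN-5 cells, a long-established line from a human neuroblastoma. The members are BCL2, BCL2L1, BCL2L2, MCL1, BAD, BAK1, BID, BCL2L11 and BAG1, chosen by gene symbol in the platform's probe annotation, and each has 1 probe set among the 8746 gene probe sets of the array. RNA was measured on 9 Affymetrix 1-colour arrays: 3 of untreated cells, which received culture medium alone, 3 of cells at 0.5 nM S100B and 3 of cells at 5 µM S100B. The arrays of a group are described by the submitters as biological replicates, and all come from 1 commercial line with no genetic change between groups. How long the cells were exposed is not given in the sources used here, and neither is whether replicates were separate cultures or days, so p-values measure the spread between these arrays.

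Proteins of the BCL2 family decide whether the mitochondrial outer membrane is opened, a step that releases cytochrome c and starts the caspase cascade of apoptosis. BCL2, BCL-xL (from BCL2L1), BCL-w (from BCL2L2) and MCL1 hold the membrane closed, BAK forms the pore, and the BH3-only proteins BAD, BID and BIM (from BCL2L11) either neutralise the guardians or activate the pore former. BAG1 is a co-chaperone that binds BCL2 and releases nucleotide from HSP70. S100B is an EF-hand protein released by astrocytes and a ligand of the receptor RAGE, and in mouse neuroblastoma cells a low dose has been reported to raise BCL2 while a high dose is toxic. The question put to the data was whether RNA of these genes differed between the 2 doses and untreated cells.

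None of the 9 genes passed an adjusted p under 0.05 between any pair of groups by limma, a linear model whose spread estimates are moderated across all probe sets. In cells given 5 µM, 0 of the 8 members above the intensity filter passed an adjusted p under 0.05 against untreated cells, where 0.292% of all 5830 tested probe sets passed. At 0.5 nM against untreated cells 0 of 8 passed, as did 0% of all tested, and for 5 µM against 0.5 nM 0 of 8 passed, against 0.257% of all. In this fit, without replicate number, the smallest unadjusted p among the 27 tests of members was 0.0554, so 0 were under 0.05. Of all tested probe sets 6.84%, 3.29% and 4.65% were, for 5 µM against untreated, 0.5 nM against untreated and 5 µM against 0.5 nM. All 27 intervals of 95% for a difference included 0. With replicate number as a block, BAD and BAG1 had unadjusted p of 0.0440 and 0.0442 by limma between the doses (adjusted p = 0.889 each). With 3 arrays against 3 the smallest exact permutation p is 0.1, so the calls for single genes depend on the spread that limma pools.

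The arrays were alike, and most markers of the labelled cell type were read above the filter. Arrays of 1 group correlated at 0.993 to 0.997 over the tested probe sets, and those of 2 groups at 0.994 to 0.997. Of 11 sympathoadrenal neuroblastoma markers with a probe set, 10 lay above the filter, and the exception was TH, tyrosine hydroxylase, with a mean of 5.58 log2 against a filter at 5.95. Markers of other cell types were not all below it: 5 of 7 leukocyte markers lay above the filter, 3 of 6 epithelial, 2 of 5 astrocyte and 3 of 9 mesenchymal and Schwann-like ones. The defining markers PTPRC of leukocytes, at 4.77 log2, GFAP of astrocytes, at 5.51, and EPCAM of epithelia, at 5.00, lay below it, while CD3E of T cells, at 7.29, the keratin gene KRT18, at 6.99, and the mesenchymal VIM, at 10.84, lay above it. None of the markers above the filter passed the test in any comparison, and those below it were not tested. The filter left out the dimmest 33.3% of gene probe sets. A place above it does not by itself show that a gene is expressed. The mean over 6 epithelial markers was 5.73 to 5.74 log2 on the 5 µM arrays, 5.76 to 5.78 at 0.5 nM and 5.77 to 5.85 on untreated arrays. It is given because its 5 µM and untreated ranges were separate, while in the other marker lists these ranges overlapped. How often such a mean separates among dim probe sets was not computed. Of the epithelial markers, the 3 above the filter did not pass the threshold. The part of the epithelial mean in the values below was not tested. RNA was taken from whole cultures, so fewer cells expressing a gene and less RNA per cell cannot be told apart.

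**Figure D1:**
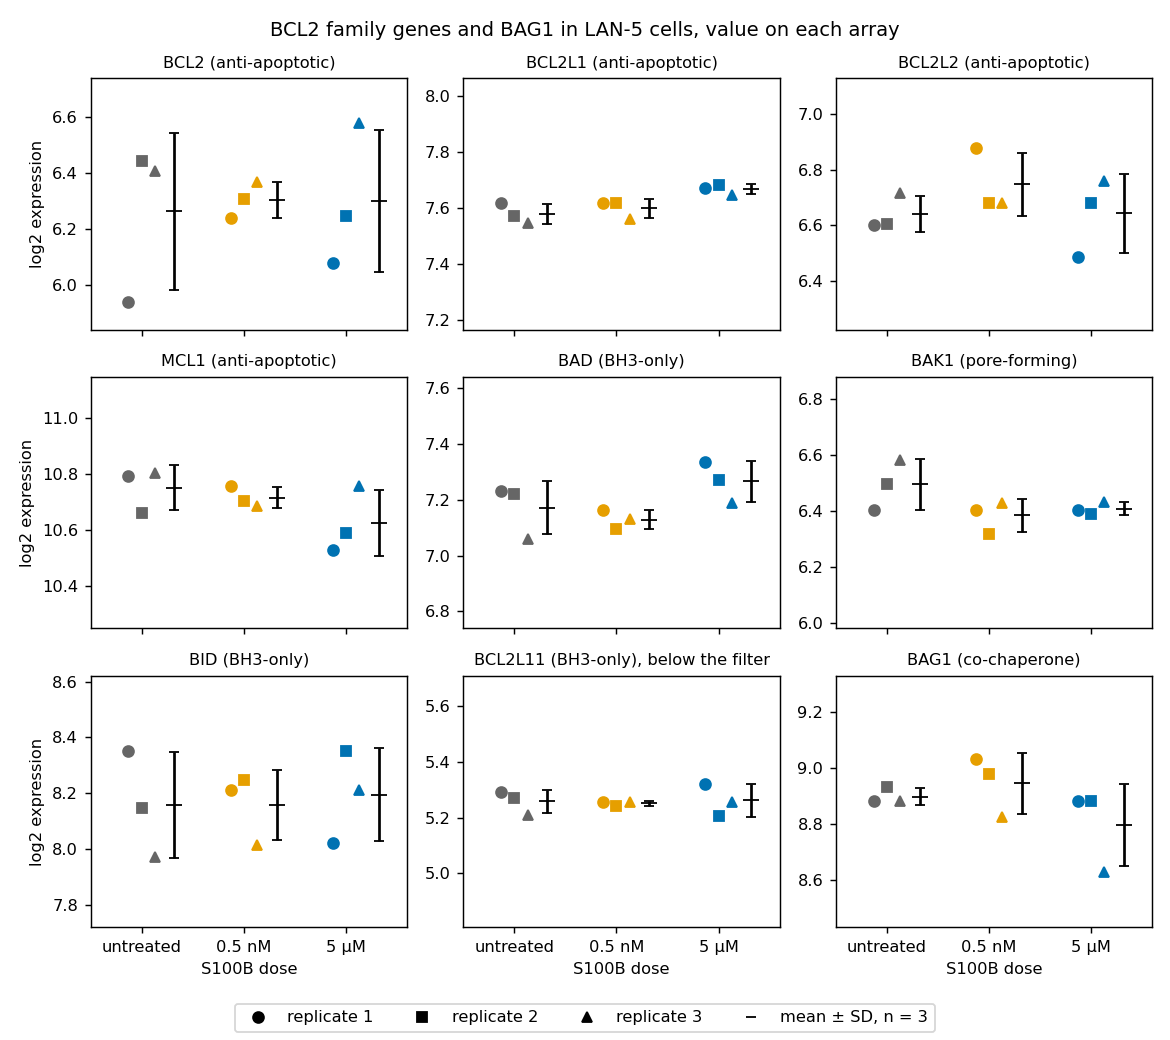
Value of each of the 9 genes on each array, in log2 expression units (vertical axis, the same span of 0.9 log2 in every panel), for untreated cells and cells given 0.5 nM and 5 µM S100B (horizontal axis). Points are arrays, with a symbol for each replicate number, and bars are the mean ± SD of 3 arrays. BCL2 and BID scatter widely within groups, and BCL2L1 is the only panel in which the 5 µM points lie above all 6 other arrays.

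Among the guardians of the membrane, BCL2 is the founding member, and its RNA varied more between replicates than between doses. BCL2 read 5.94, 6.44 and 6.41 log2 on the untreated arrays, 6.24, 6.31 and 6.37 at 0.5 nM, and 6.08, 6.25 and 6.58 at 5 µM. The untreated and the 5 µM arrays each span most of the range of the gene and the 0.5 nM arrays lie inside it, so all groups overlap. Cells given 5 µM averaged 6.30 ± 0.25 log2 and untreated cells 6.26 ± 0.28 (SD, n = 3 each), a difference of 0.04 ± 0.14 (SE) with a 95% interval of -0.28 to 0.36 and limma's adjusted p = 0.981. In linear terms the interval runs from 82.3% to 128% of the untreated level. At 0.5 nM the mean was 6.30 ± 0.06, and the difference from untreated was 0.04 with an interval of -0.28 to 0.36 (adjusted p = 0.9999). The 2 doses differed by -0.0042, with an interval of -0.32 to 0.31, and that sign turns after quantile normalization, at 0.0060.

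Untreated replicate 1 held the lowest BCL2 value of all arrays. Its mean over 9 hybridisation control probe sets was also the lowest, at 8.40 log2 where the other arrays had 8.59 to 9.07, and the part of this in the BCL2 value was not tested. Without it the difference from untreated was -0.12 log2 at 5 µM and -0.12 at 0.5 nM, with unadjusted p of 0.337 and 0.353 by limma. The array with the highest value was 5 µM replicate 3, and without it the difference between 5 µM and untreated cells was -0.10. The pooled SD of BCL2 within groups was 0.222 log2, larger than that of 97.4% of the tested probe sets, whose median SD was 0.0877. These arrays therefore leave the size of any BCL2 change open within its interval. That interval is not a detection limit, since calls rest on the adjusted p.

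BCL2L1, whose long form BCL-xL protects mitochondria, had the tightest spread of the 9 genes. It read 7.62, 7.57 and 7.54 log2 on the untreated arrays, 7.62, 7.62 and 7.56 at 0.5 nM, and 7.67, 7.68 and 7.65 at 5 µM. All 3 arrays at 5 µM lie above all 6 other arrays, and the untreated and 0.5 nM arrays overlap. Cells at 5 µM averaged 7.67 ± 0.02 and untreated cells 7.58 ± 0.04 (SD, n = 3 each), a difference of 0.09 ± 0.05 (SE). Relative to untreated this is 106%, with a 95% interval of 98.7% to 115%, and limma's adjusted p was 0.766. Against 0.5 nM the difference was 0.07 with an interval of -0.04 to 0.18 (adjusted p = 0.994), and at 0.5 nM against untreated it was 0.02 with an interval of -0.09 to 0.13.

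Groups that do not overlap are common among all genes, and BCL2L1 is read against that background. At 5 µM against untreated cells it was 1 of 8 members above the filter whose arrays did not overlap, and 12.3% of all tested probe sets did not overlap, 2.86% with 5 µM higher. At 0.5 nM against untreated cells 0 of 8 members were separate, where 6.98% of all were. Between 5 µM and 0.5 nM, BCL2L1 and BAD were separate, 2 of 8 members and both higher at 5 µM, where 6.98% of all tested were separate and 2.35% were higher at 5 µM. Only 1.96% of the tested probe sets had a smaller SD within groups than BCL2L1, at 0.0300 log2. With its own spread in place of the moderated one, the unadjusted p of BCL2L1 at 5 µM against untreated was 0.0106, where the moderated p was 0.0952, and the adjusted p was 0.592.

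BCL2L2 encodes BCL-w, a close relative of BCL-xL that is abundant in neurons. Its probe set read 6.60, 6.60 and 6.72 log2 on the untreated arrays, 6.88, 6.68 and 6.68 at 0.5 nM, and 6.48, 6.68 and 6.76 at 5 µM. The highest value is 0.5 nM replicate 1 and the lowest 5 µM replicate 1, and all groups overlap. The difference from untreated was 0.0018 at 5 µM, with an interval of -0.18 to 0.18, and 0.11 ± 0.08 (SE, n = 3 per group) at 0.5 nM, with an interval of -0.08 to 0.29 and limma's adjusted p = 0.9999. The difference of -0.10 between the doses also did not pass (adjusted p = 0.994), and it was 0.04 without replicate 1 of every group. Without 0.5 nM replicate 1 the difference between 0.5 nM and untreated cells was 0.04.

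MCL1 is a short-lived guardian whose protein turns over quickly. MCL1 read 10.79, 10.66 and 10.80 log2 on the untreated arrays, 10.76, 10.71 and 10.68 at 0.5 nM, and 10.53, 10.59 and 10.76 at 5 µM. On 2 of the 3 arrays at 5 µM the value is below all untreated arrays, and 5 µM replicate 3 lies within them. The means were 10.62 ± 0.12 at 5 µM and 10.75 ± 0.08 in untreated cells (SD, n = 3 each), and the difference of -0.13 ± 0.07 (SE) had a 95% interval of -0.28 to 0.03 and limma's adjusted p = 0.766. In linear terms that is 91.6% of untreated, with an interval of 82.3% to 102%. Without 5 µM replicate 3 the difference was -0.19 with an unadjusted p of 0.0137 by limma, without replicate 1 of every group it was -0.06, and over the alternatives tried the adjusted p of MCL1 in this comparison was 0.540 to 1. At 0.5 nM the difference from untreated was -0.04, with an interval of -0.19 to 0.12, and the doses differed by -0.09, with an interval of -0.24 to 0.06.

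BAK1 encodes BAK, which forms the pore in the outer membrane, and it is the only pore former among the members. BAK1 read 6.40, 6.50 and 6.58 log2 on the untreated arrays, 6.40, 6.32 and 6.43 at 0.5 nM, and 6.40, 6.39 and 6.43 at 5 µM. Untreated replicates 2 and 3 are the highest of the 9 arrays, and untreated replicate 1 lies among the treated ones. The difference from untreated was -0.11 ± 0.06 at 0.5 nM, with an interval of -0.24 to 0.02 and limma's adjusted p = 0.9999, and -0.09 ± 0.06 at 5 µM, with an interval of -0.22 to 0.05 and an adjusted p of 0.822 (SE, n = 3 per group). Both comparisons share the untreated arrays. Without untreated replicate 1 they were -0.16 and -0.13, with unadjusted p of 0.0296 and 0.0578 by limma, and without untreated replicate 3 they were -0.07 and -0.04. The adjusted p of BAK1 over the alternatives was 0.692 to 1 at 0.5 nM and 0.737 to 1 at 5 µM. Between the doses the difference was 0.02, with an interval of -0.11 to 0.16.

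Of the BH3-only genes, BAD encodes a protein that binds BCL2 and BCL-xL and is silenced by phosphorylation and capture by 14-3-3 proteins. The values were 7.23, 7.22 and 7.06 log2 on the untreated arrays, 7.16, 7.09 and 7.13 at 0.5 nM, and 7.34, 7.27 and 7.19 at 5 µM. All 3 arrays at 5 µM lie above all 3 at 0.5 nM, and the untreated arrays overlap both. BAD averaged 7.27 ± 0.07 at 5 µM and 7.13 ± 0.03 at 0.5 nM (SD, n = 3 each), a difference of 0.14 ± 0.06 (SE) with a 95% interval of -0.0038 to 0.28. That is the comparison with the smallest unadjusted p among the members, and limma's adjusted p was 0.994. Against untreated cells, at 7.17 ± 0.10, the difference was 0.09 at 5 µM with an interval of -0.05 to 0.24 (adjusted p = 0.821) and -0.04 at 0.5 nM with an interval of -0.18 to 0.10. Without untreated replicate 3, the lowest of all arrays, the difference at 5 µM was 0.04 and that at 0.5 nM -0.10.

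BID links death receptors to mitochondria, since caspase-8 cleaves it to its active form. BID read 8.35, 8.15 and 7.97 log2 on the untreated arrays, 8.21, 8.25 and 8.01 at 0.5 nM, and 8.02, 8.35 and 8.21 at 5 µM. The groups overlap, with the arrays at 0.5 nM inside the range of the untreated ones, and the pooled SD of 0.162 was larger than that of 91.1% of tested probe sets. The difference was 0.04 at 5 µM and 0.00014 at 0.5 nM against untreated, with intervals of -0.20 to 0.28 and -0.24 to 0.24 and limma's adjusted p of 0.974 and 0.9999. Without replicate 1 of every group the difference at 5 µM was 0.22, and without replicate 3 of every group it was -0.06.

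BCL2L11 encodes BIM, a potent activator of the pore formers, and was the 1 member below the intensity filter. It read 5.29, 5.27 and 5.21 log2 on the untreated arrays, 5.26, 5.24 and 5.26 at 0.5 nM, and 5.32, 5.21 and 5.26 at 5 µM. All 9 values lie within 0.12 log2 of each other, and a probe set this dim may carry mostly background, which could not be assessed without scanner intensities. Fitted without the filter over 8746 probe sets, its difference from untreated was 0.0037 at 5 µM, with an interval of -0.09 to 0.10 and limma's adjusted p = 0.995. At 0.5 nM it was -0.0057, with an interval of -0.10 to 0.09, and this sign turns after quantile normalization, at 0.0068, and after median centring, at 0.02.

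BAG1, the co-chaperone, is not a BCL2 homologue. BAG1 read 8.88, 8.93 and 8.88 log2 on the untreated arrays, 9.03, 8.98 and 8.82 at 0.5 nM, and 8.88, 8.88 and 8.63 at 5 µM. The lowest value is 5 µM replicate 3, while the other two 5 µM arrays lie at the untreated level. Cells at 5 µM averaged 8.80 ± 0.15 and those at 0.5 nM 8.95 ± 0.11 (SD, n = 3 each), a difference of -0.15 ± 0.08 (SE) with a 95% interval of -0.33 to 0.03 and limma's adjusted p = 0.994. Without 5 µM replicate 3 it was -0.06. Against untreated cells the difference was -0.10 at 5 µM, with an interval of -0.28 to 0.07 and an adjusted p of 0.839, and 0.05 at 0.5 nM, with an interval of -0.13 to 0.22. Without 5 µM replicate 3 the difference at 5 µM was -0.02, and without 0.5 nM replicate 1 that at 0.5 nM was 0.0032.

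**Figure D2:**
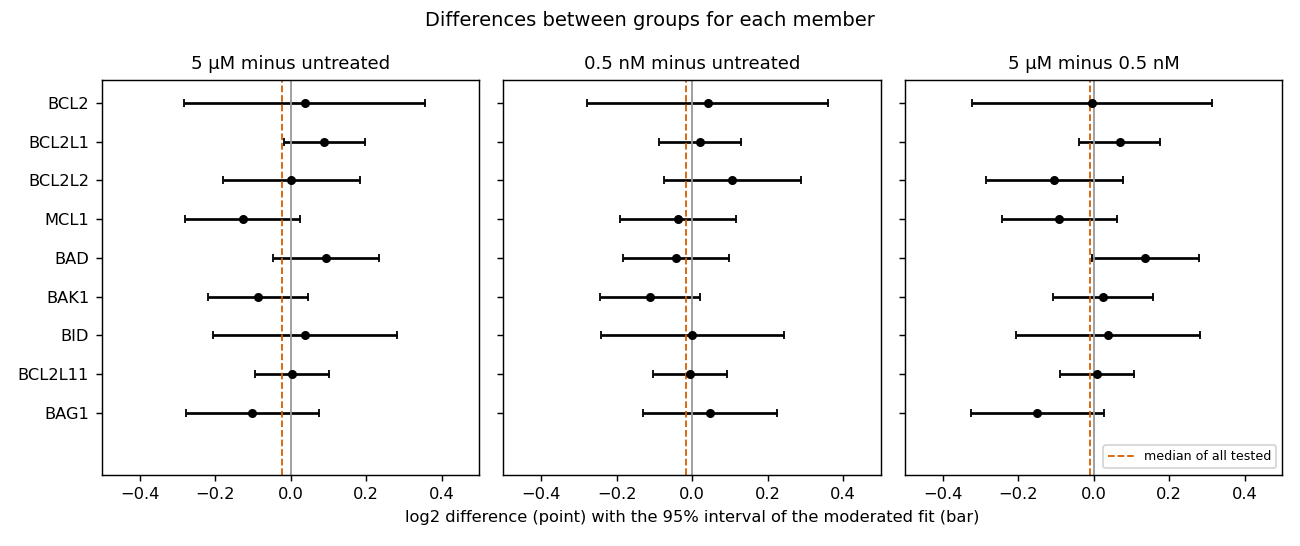
Difference in log2 expression (horizontal axis) for each of the 9 genes in 5 µM minus untreated, 0.5 nM minus untreated and 5 µM minus 0.5 nM, with bars for the 95% interval of the moderated fit and a dashed line at the median of all 5830 tested probe sets. Every interval crosses 0, and the interval of BCL2 is the widest, from -0.28 to 0.36 at 5 µM against untreated.

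As a group, the 9 genes sat close to the rest of the array. At 5 µM against untreated cells 6 differences were above 0 and 3 below, from -0.13 in MCL1 to 0.09 in BAD, with a median of 0.0037, where the median over all tested probe sets was -0.02. At 0.5 nM against untreated 5 were above 0 and 4 below, from -0.11 in BAK1 to 0.11 in BCL2L2, with a median of 0.00014 against -0.02 over all. The differences between 5 µM and 0.5 nM ran from -0.15 in BAG1 to 0.14 in BAD, with a median of 0.0094 against -0.0089 over all. The guardians did not share a sign at 5 µM, since MCL1 was at -0.13 and BCL2L1 at 0.09, and neither did the BH3-only genes and BAK1, with BAD at 0.09 and BAK1 at -0.09. These are values that did not pass the test.

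The intervals set what the arrays could have shown. Over the 9 genes they ran from 82.3% to 128% of the untreated level at 5 µM, from 82.5% to 128% at 0.5 nM, and from 79.8% to 124% for 5 µM relative to 0.5 nM. They are not adjusted for the number of genes. Half-widths ran from 0.10 log2 for BCL2L11, a dim probe set read from the fit without the filter, to 0.32 for BCL2. The median over all tested probe sets was 0.16. In the order of group means from untreated to 0.5 nM to 5 µM, BCL2L1 and BID had each step upward, the first of BID by 0.00014, and MCL1 each step downward. In BCL2, BCL2L2 and BAG1 the 0.5 nM mean was the highest, and in BAD, BAK1 and BCL2L11 it was the lowest. Of 5829 tested probe sets, 11.4% had each step upward and 25.5% each step downward. The 0.5 nM mean was the highest in 29.5% of them and the lowest in 33.6%. No pair of neighbouring means of the members passed the test.

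**Figure D3:**
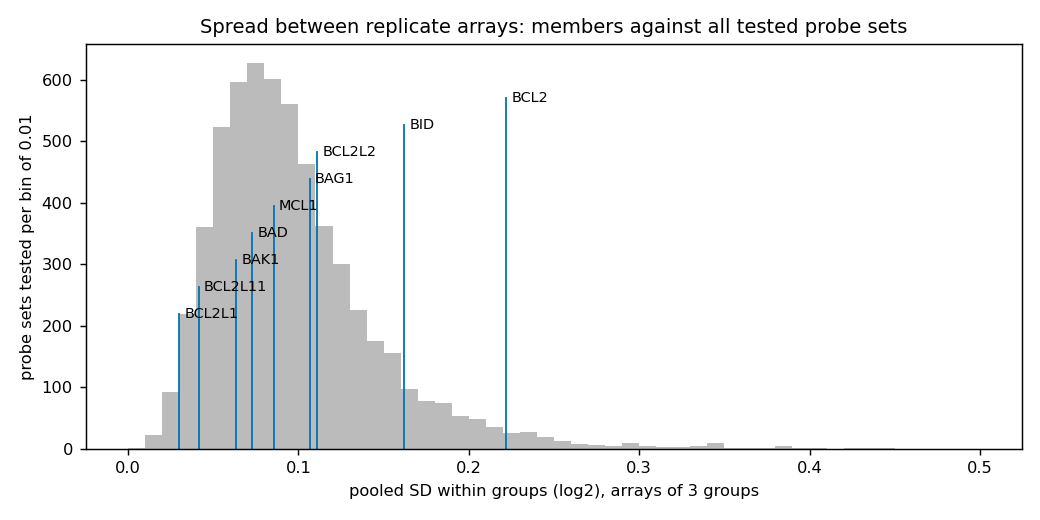
Pooled SD within groups in log2 units (horizontal axis) for all tested probe sets up to 0.5 log2 (grey bars, counts in bins of 0.01 on the vertical axis, with 3 probe sets beyond the axis) and for the 9 genes (blue lines, whose heights only separate the labels). BCL2L1 lies at the narrow end with 0.0300 and BCL2 and BID at the wide end with 0.222 and 0.162.

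In 5 members 1 replicate number held the same place in all 3 groups. The share of all tested probe sets that do so was not computed, so the count is not read as a trait of these genes. Over all tested probe sets, deviations of the replicate 3 arrays from their group means correlated at 0.30 to 0.33. The part of this in the places of the members was not tested. Replicate 1 was the lowest BCL2 array and the highest BAD array of every group, and replicate 3 was the lowest of BCL2L1 and BAG1 and the highest of BAK1. In untreated BAG1, replicates 1 and 3 both round to 8.88 log2.

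No correlation between members held after adjustment. Of 36 pairs of members, 2 had an exact permutation p under 0.05 for Pearson's r over the 9 arrays, and 0 had an adjusted p under 0.05 by Benjamini-Hochberg over the 36, the smallest being 0.473. BCL2L1 and BAD had r = 0.72 (two-sided exact permutation p = 0.0290, adjusted 0.473) and Spearman's rho = 0.68 (exact permutation p = 0.0515), with r at 0.53 without the 2 arrays farthest from the median of BCL2L1. MCL1 and BAD had r = -0.71 (exact permutation p = 0.0340, adjusted 0.473) and rho = -0.60 (exact permutation p = 0.0968). Their r was -0.13 without the 2 arrays farthest from the median of MCL1, and -0.62 for deviations from group means. Leaving out the most extreme arrays of a gene narrows its range. An r without them therefore does not show what a relation rests on. By Spearman's rho 1 pair had an exact permutation p under 0.05, BAK1 and BID, with rho = -0.72 (exact permutation p = 0.0320, adjusted 0.436) and r = -0.59 (exact permutation p = 0.0900, adjusted 0.473), and r was -0.34 without the 2 arrays farthest from the median of BAK1. BCL2 and BCL2L1 had r = -0.34 over the 9 arrays (exact permutation p = 0.378, adjusted 0.820). Their r was -0.84 without the 2 arrays farthest from the median of BCL2, which was not tested and is not read as a relation. As a description, the deviations from group means correlated from -0.87, in BCL2L1 and BAK1, to 0.80, in BCL2L1 and BID, and at -0.77 in BAK1 and BID. The arrays share 3 groups and replicate numbers, whose part in these coefficients was not tested.

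The likeness of other genes was described for BAD and BAK1, the members with the smallest p over the 3 groups. Among 5225 probe sets of other genes above the filter, the values of BAD over the 9 arrays were most like those of the sorting nexin SNX11 (r = 0.91, rho = 0.83), the olfactory receptor OR1D2 (r = 0.89, rho = 0.86) and the helicase WRN (r = 0.88, rho = 0.84). BAK1 was most like EYA3 (r = 0.92, rho = 0.83), the arginine deiminase PADI3 (r = 0.91, rho = 0.75) and involucrin, IVL (r = 0.90, rho = 0.62). These are the highest of 5225 coefficients over 9 arrays that share 3 groups, and they are given as a description.

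Around the members, 79 other genes of cell death control were listed by role, and 41 of the 60 that a single-symbol probe set represents lay above the filter. None of the 41 passed in any comparison by limma. At 5 µM against untreated 5 had an unadjusted p under 0.05, where 6.84% of all tested did, and in 7 the arrays did not overlap, where 12.3% of all did not. At 0.5 nM the counts were 1, against 3.29% of all, and 2, against 6.98%, and for 5 µM against 0.5 nM they were 2, against 4.65%, and 1, against 6.98%.

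Other genes of the BCL2 family were read for 7 of 17, and BAX, BCL2A1, BCL2L10, BIK and BNIP1 had probe sets below the filter. At 5 µM against untreated 0 rose and 0 fell, with a median of -0.03. The smallest p belonged to BOK, a pore former related to BAX, at 6.23 ± 0.06 log2 at 5 µM and 6.32 ± 0.07 in untreated cells (SD, n = 3 each, difference -0.09 ± 0.06 SE, limma's adjusted p = 0.818), and to BNIP2 at 0.07. At 0.5 nM the median was -0.05, with BNIP3L, a receptor for the removal of mitochondria, at -0.09 and BCL2L14 at 0.09. Between 5 µM and 0.5 nM the smallest p belonged to BCL2L14 at -0.13 and to PMAIP1, whose product NOXA binds MCL1, at 0.12. BAX, the pore former beside BAK, averaged 5.66 log2 over all arrays, and without the filter its difference was 0.06 at 5 µM and 0.09 at 0.5 nM against untreated (adjusted p = 0.830 and 0.979).

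Downstream of the membrane, 9 of 14 genes of cytochrome c release and caspase activation were read, with 0 past the threshold. VDAC1, a channel of the outer membrane, had the lowest difference from untreated of all 41 genes at 5 µM. It was at 9.31 ± 0.05 log2 against 9.62 ± 0.09 in untreated cells (SD, n = 3 each). It did not pass, at a difference of -0.31 ± 0.09 (SE, 95% interval -0.51 to -0.11, limma's adjusted p = 0.463). Its arrays at 5 µM lie below all untreated arrays, at 0.5 nM the difference from untreated was -0.06, and 5 µM against 0.5 nM it was -0.25 (adjusted p = 0.978). AIFM1, a mitochondrial flavoprotein of caspase-independent death, was at -0.12 at 5 µM against untreated and at -0.16 against 0.5 nM. DIABLO, which frees caspases from their inhibitors, was at -0.09 at 0.5 nM. The list median was -0.05 at 5 µM and -0.02 at 0.5 nM against untreated.

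Of the inhibitor of apoptosis genes 2 of 7 were read and 0 passed, with BIRC5, survivin, at -0.13 and BIRC2, a ubiquitin ligase of the TNF receptor complex, at 0.05 at 5 µM against untreated. At 0.5 nM they were at -0.07 and 0.01, and between 5 µM and 0.5 nM at -0.07 and 0.04. Among 4 of 12 death receptor genes 0 passed. TNFRSF10B, a receptor for the ligand TRAIL, was at 7.03 ± 0.02 log2 in untreated cells, 7.15 ± 0.03 at 0.5 nM and 7.20 ± 0.09 at 5 µM (SD, n = 3 each), and both doses lie above all untreated arrays. Its differences from untreated were 0.13 at 0.5 nM and 0.17 at 5 µM, with limma's adjusted p of 0.9999 and 0.582, and they share the untreated arrays. The share of tested probe sets above untreated at both doses was not computed. The initiator caspase CASP10 was at -0.06 at 5 µM and the adaptor TRADD at 0.09 at 0.5 nM, and between 5 µM and 0.5 nM TNFRSF10B was at 0.04 and TRADD at -0.04. The medians of the inhibitor and the death receptor genes were -0.04 and -0.0028 at 5 µM and -0.03 and 0.03 at 0.5 nM against untreated.

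The other BAG genes and HSP70 partners, which bear on BAG1, were read for 6 of 13 and 0 passed. ST13, which binds HSP70, was at 6.66 ± 0.09 log2 at 5 µM and 6.43 ± 0.16 in untreated cells (SD, n = 3 each), a difference of 0.24 ± 0.08 (SE, limma's adjusted p = 0.620), and DNAJB1, an HSP40 that delivers clients to HSP70, was at -0.10. At 0.5 nM BAG6 was at 0.08 and the mitochondrial HSP70 HSPA9 at -0.10. Between 5 µM and 0.5 nM ST13 was at 0.16 and BAG6 at -0.11. The list median was -0.05 at 5 µM and -0.02 at 0.5 nM against untreated, where all tested probe sets had -0.02 and -0.02.

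Genes that regulate BCL2 family proteins were read for 13 of 16 and 0 passed. FOXO3, a transcription factor known to activate the BIM gene, was at 9.00 ± 0.19 log2 at 5 µM and 9.23 ± 0.05 in untreated cells (SD, n = 3 each), a difference of -0.23 ± 0.09 (SE, limma's adjusted p = 0.700). MAPK8, the kinase JNK1, which phosphorylates BCL2 and BIM, was at -0.17, and its arrays at 5 µM lie below all untreated arrays. At 0.5 nM GSK3B, a kinase that marks MCL1 for degradation, was at 0.17 and YWHAQ, a 14-3-3 protein, at -0.07. Between 5 µM and 0.5 nM BECN1, an autophagy protein held by BCL2, was at 0.22 and FOXO3 at -0.19. The list median at 5 µM against untreated was 0.0033, where that of all tested probe sets was -0.02.

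**Figure D4:**
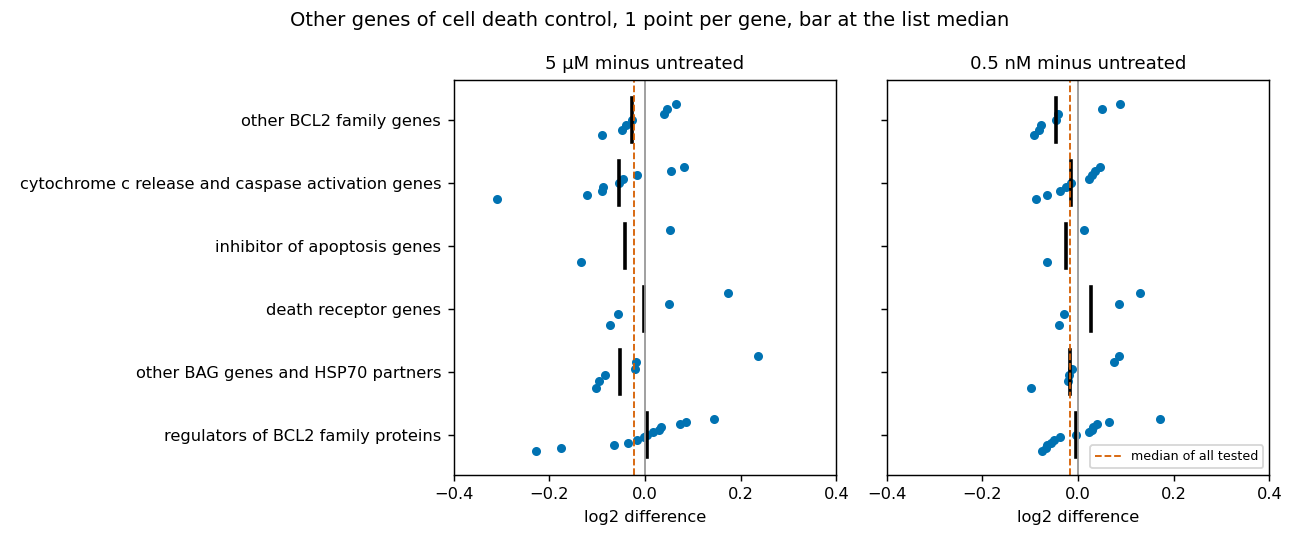
Log2 difference from untreated cells (horizontal axis) at 5 µM and at 0.5 nM for the 41 other genes of cell death control above the filter, 1 point per gene by list, with a black bar at each list median and a dashed line at the median of all tested probe sets. VDAC1 is the leftmost point at 5 µM, at -0.31, and no point passed the test.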

How the data were processed

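LAN-5 RNA was measured on 9 arrays in 3 groups taken from the sample titles. The deposited log2 values give each probe set 1 number per array; per the submitters' processing notes the authors used GCRMA, a background correction, normalization and summary method, with no version or settings stated. The scale was read from the values, 4.37 to 14.5 with array medians of 6.60 to 6.64. Such summaries may compress differences of dim probe sets. Of 8793 probe sets, 47 controls and then the 2916 with a mean at or below 5.95 were left out, which kept 5830. BCL2L11 was read from a fit without the filter.

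Groups were compared with limma 3.58.1 (R 4.3.3; functions lmFit and eBayes) in 1 fit of 3 groups without covariates, with Benjamini-Hochberg adjustment over all tested probe sets and a threshold of 0.05. The procedure was also run on simulated data with independent noise on each array. Those data lack the shared deviations of replicate 3 arrays and the exact repeats described below, so they do not cover these features. Symbols were updated by Entrez identifier; 7838 of 7840 probe sets with 1 symbol matched. With 1 probe set per gene, isoforms such as the long and short forms of BCL2L1 and MCL1 were not told apart, and the probe sets of MCL1, BAG1 and BCL2L11 carry the suffix _s_at, used where probes may match several transcripts. The members and lists were chosen with earlier results of these data known. All probe sets of members are named, and of each list the 2 genes with the smallest p in each comparison, using the brightest probe set of a gene. BAX, and BIRC7 in the closing section, were picked with their values known. The number of arrays limits the precision.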

Additional observations from a re-analysis of the deposited data

How the results depend on the processing

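In none of the 20 alternatives did a member pass the threshold in any comparison, so the count was 0 throughout, with smallest adjusted p of 0.540 at 5 µM against untreated, 0.692 at 0.5 nM against untreated and 0.646 between the doses. BCL2 and BAK1 were not tested under the stricter filter on dim probe sets. Deviations of same-numbered arrays from their group means correlated at 0.031 to 0.071 for replicate 1, -0.00035 to 0.23 for replicate 2 and 0.30 to 0.33 for replicate 3. Since 4 of 9 pairs exceeded 0.1, the numbers were not taken to pair the arrays, although the replicate 3 arrays deviated together in every group; 4 of 9 arrays, among them all 3 of replicate 3, correlated best with their own number. With the replicate block the count of members was 0 and those of all probe sets 15, 0 and 15, against 17, 0 and 15 without it, and between the doses BAD and BAG1 had unadjusted p of 0.0440 and 0.0442 (limma's adjusted p = 0.889 each). Over all probe sets, 1 and 1 passed with the unmoderated test and 7 and 4 in fits of only the 2 groups, at 5 µM against untreated and against 0.5 nM. Leaving out arrays gave 0 to 17 and 0 to 14. Signs of small differences, all short of the threshold, turned when arrays were left out. At 5 µM against untreated the ranges were -0.12 to 0.15 for BCL2, -0.057 to 0.081 for BCL2L2, -0.062 to 0.22 for BID, -0.026 to 0.038 for BCL2L11 and -0.014 to 0.12 for BIRC2. At 0.5 nM against untreated they were -0.12 to 0.13 for BCL2, -0.083 to 0.0042 for MCL1, -0.092 to 0.097 for BID, -0.032 to 0.011 for BCL2L11, -0.0055 to 0.11 for BAG1, -0.084 to 0.097 for BIRC2, -0.0044 to 0.31 for GSK3B, -0.20 to 0.027 for HSPA9 and -0.22 to 0.043 for VDAC1. Between 5 µM and 0.5 nM they were -0.14 to 0.11 for BCL2, -0.20 to 0.039 for BCL2L2, -0.0083 to 0.048 for BAK1, -0.041 to 0.15 for BID, -0.021 to 0.037 for BCL2L11, -0.046 to 0.14 for BIRC2 and -0.024 to 0.080 for TNFRSF10B. Signs held but sizes moved for others: at 5 µM against untreated MCL1 was -0.19 to -0.058, BAD 0.039 to 0.13, BAK1 -0.13 to -0.042 and BAG1 -0.15 to -0.017; at 0.5 nM BCL2L1 was 0.0043 to 0.040, BCL2L2 0.022 to 0.18, BAD -0.099 to -0.00033 and BAK1 -0.17 to -0.067; and between the doses MCL1 was -0.17 to -0.022, BAD 0.10 to 0.18 and BAG1 -0.21 to -0.065. Quantile normalization turned BCL2 between the doses (0.0060) and BCL2L11 at 0.5 nM (0.0068), and median centring turned BCL2L11 at 0.5 nM (0.021). The alternative on several probe sets per gene was not run, since each member has 1. Signal over background could not be assessed without scanner intensities.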

Other observations

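BIRC7, which encodes livin, an inhibitor of apoptosis found in melanoma and neuroblastoma, lay below the intensity filter and is named after its values were seen. Its probe set read 5.84, 5.96 and 5.87 log2 on the untreated arrays, 5.72, 5.68 and 5.60 at 0.5 nM, and 5.72, 5.63 and 5.69 at 5 µM. All 6 treated arrays lie below all 3 untreated arrays, and replicate 1 of both doses holds exactly the same value. Of the probe sets above the filter, 12.3% did not overlap at 5 µM against untreated and 6.98% at 0.5 nM. The share below untreated at both doses was not computed. Fitted without the filter, the difference from untreated was -0.21 ± 0.05 at 5 µM and -0.23 ± 0.05 at 0.5 nM (SE, n = 3 per group), with unadjusted p of 0.00242 and 0.00146 and limma's adjusted p of 0.312 and 0.979, so neither passed, and both share the untreated arrays.

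The deposited values hold exact repeats between arrays. In 6 of the 9 members at least 2 arrays have the same value to the last digit, as in 3099 of 5830 tested probe sets (53.2%). BAK1 is at 6.40 on replicate 1 of every group, and BAG1 at 8.88 on untreated replicate 1 and 5 µM replicates 1 and 2. BCL2L2 and BCL2L11 also have 1 value on 3 arrays each. Repeats between arrays of 1 group lower that group's SD. BCL2, MCL1 and BAD have 9 distinct values.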
